A study of Mus musculus with 6 samples.

Results

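The 10 genes described here belong to the connective tissue of muscle: Fn1, Postn, Tnc, Sparc, Thbs1, Thbs4, Dcn, Lum, Bgn and Pdgfra. They encode glycoproteins and proteoglycans that fibroblasts secrete and, in Pdgfra, the receptor by which muscle fibroblasts are recognised. They were chosen by symbol, with earlier results of these data known, so their counts below describe these genes and do not test them as a set. All 10 were found once each among the 25344 genes of the table. RNA of whole gastrocnemius, a calf muscle made mostly of fast fibres in mice, was sequenced, with 3 libraries of wild-type animals (WT) and 3 of their transgenic littermates (HSA-NRTN). In the transgenic mice NRTN, which encodes the secreted neurotrophic factor neurturin, is expressed under the human alpha-skeletal actin promoter, so the source of the factor is the muscle fibre and not the fibroblast. The labels give neither age nor sex, nor how many animals stood behind a library. The p-values therefore speak only of the variation among these 6 libraries.

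Fibroblasts lie between muscle fibres and make the collagen scaffold around them. Fibronectin forms fibrils on which cells and collagen are anchored through integrins. The small leucine-rich proteoglycans decorin, biglycan and lumican bind collagen fibrils and set their width. Matricellular proteins, such as periostin, tenascin-C, SPARC and the thrombospondins, are secreted into the matrix but act mainly on cells, and several are known to increase during growth and repair. The fibro-adipogenic progenitors of muscle, its main fibroblast population, carry PDGF receptor alpha on their surface.

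Upstream sequence is shown for 3 of the genes, the one with the largest ratio between the groups (Postn), the proteoglycan gene Bgn that rose and the gene that did not pass the test (Thbs4), so that genes with unlike responses can be seen side by side. Each line holds the 250 bases before a RefSeq start site on the strand of the gene (GRCm38.p6), and for these 3 genes that site lies within 2 bases of the start given in the deposited table. Capitals mark TATAAA or GGGCGG, searched on both strands, where neighbouring copies may overlap. The windows are chr3:54360857-54361106 (plus strand) for Postn, chrX:73483351-73483600 (plus strand) for Bgn and chr13:92794819-92795068 (minus strand) for Thbs4.
Postn: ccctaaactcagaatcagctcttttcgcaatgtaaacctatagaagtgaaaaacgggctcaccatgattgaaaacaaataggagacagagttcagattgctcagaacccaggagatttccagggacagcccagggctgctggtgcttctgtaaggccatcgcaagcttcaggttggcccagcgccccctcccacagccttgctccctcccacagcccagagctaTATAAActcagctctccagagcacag
Bgn: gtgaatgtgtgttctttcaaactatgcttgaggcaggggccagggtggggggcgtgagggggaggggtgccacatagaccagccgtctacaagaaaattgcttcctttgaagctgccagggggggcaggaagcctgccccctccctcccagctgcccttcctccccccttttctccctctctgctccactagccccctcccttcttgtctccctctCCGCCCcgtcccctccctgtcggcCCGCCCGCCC
Thbs4: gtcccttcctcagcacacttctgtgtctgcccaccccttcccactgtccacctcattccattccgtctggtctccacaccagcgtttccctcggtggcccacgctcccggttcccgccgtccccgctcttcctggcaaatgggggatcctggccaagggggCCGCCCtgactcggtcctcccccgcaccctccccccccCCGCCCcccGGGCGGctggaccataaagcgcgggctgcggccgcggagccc
Postn held 1 TATAAA, starting 26 bases before the start site, and no GGGCGG. The window of another RefSeq start site of Postn, 1842 bases from the deposited start and not shown, held neither. Bgn held 3 copies of GGGCGG, 2 of which overlap, and Thbs4 held 3, and neither held TATAAA in this window. Of 32851 RefSeq promoters of the same length, 12.4% held TATAAA and 32.7% held GGGCGG. The share of G and C was 52.0% for Postn, 64.4% for Bgn and 70.8% for Thbs4. The matches describe the letters only. RefSeq sequences were also matched for Tnc, Sparc and Pdgfra, so for 6 of the 10 genes in all. Tnc held both TATAAA and GGGCGG, and Sparc and Pdgfra held neither.

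The libraries held 27418154 to 50291845 reads counted in genes. Nrtn was at 1.70 to 4.33 FPKM in WT and at 169 to 201 FPKM in HSA-NRTN, which matches the labels of all 6 libraries. Genes that define skeletal muscle, such as Acta1 and Ckm, were present at high levels in all 6 libraries, with a summed level of 43059 to 47680 FPKM over 6 genes in WT and 28276 to 31408 FPKM in HSA-NRTN. FPKM, reads scaled to gene length and to the reads counted, divides by a library's total, so the value of each gene also depends on the most abundant ones. The 10 genes with the most reads held 22.6% to 23.7% of reads in WT and 18.4% to 20.7% in HSA-NRTN. The size factors behind the authors' own test shift the HSA-NRTN values by -0.30 (log2) against WT. Each change is therefore given with FPKM as deposited and with these size factors, and a gene is said to have risen or fallen only if it passed under both. Changes are differences of log2(FPKM + 1), which understate the change of genes with low values, tested with limma over the 10755 genes whose mean reached 1 FPKM, and a gene was called where the Benjamini-Hochberg adjusted p was under 0.05.

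All 10 genes passed the filter on low values. With FPKM as deposited, 9 of the 10 were called higher in HSA-NRTN, against 41.6% of all tested genes, and 0 were called lower, against 11.7% (53.3% in either direction). With the size factors 8 were called higher, against 21.1% of tested genes, and 0 lower, against 29.9% (51.0% in either direction). At an unadjusted p under 0.05 limma also placed 0 of the 10 lower under either scaling, and limma-voom on reads recovered from the table called 8 higher and 0 lower, against 21.9% and 30.7% of tested genes (52.6% in either direction). By the test in the authors' deposited table, 7 of the 10 were higher at an adjusted p under 0.05, where 18.0% of 18953 genes were, and 0 were lower, where 17.8% were. The median log2 change of the 10 genes was 0.87 as deposited and 0.61 with the size factors, beside 0.18 and -0.05 over all tested genes. Libraries of the groups did not overlap for 9 of the 10 genes as deposited, always with HSA-NRTN above WT, against 47.0% of tested genes in that direction and 62.1% in either. With the size factors this held for 7, against 24.6% and 60.0%.

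**Figure D1:**
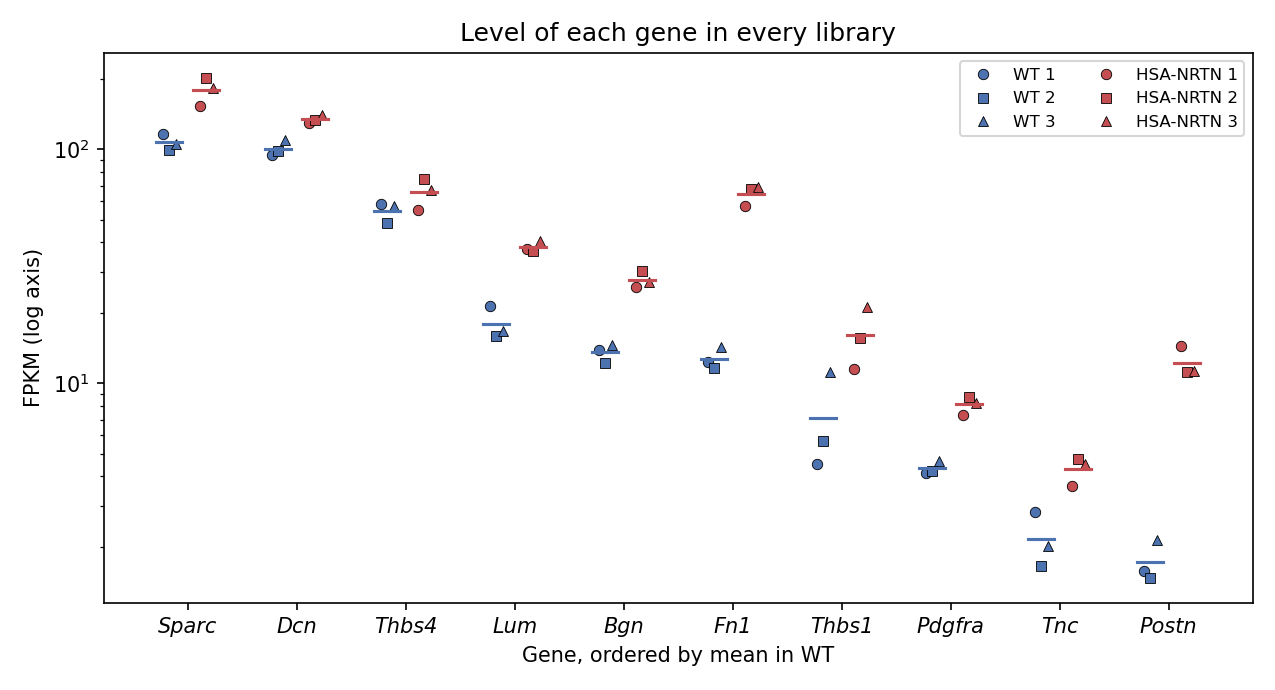
FPKM on a log axis for the 10 genes in each library; each point is 1 library, the shape its replicate number, and the line the mean of 3. The points of the groups are apart for every gene except Thbs4, and the widest gaps are those of Fn1 and Postn.

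Fn1, which encodes fibronectin, and Postn, which encodes the collagen-binding matricellular protein periostin, rose most. Fn1 (ENSMUSG00000026193; GRCm38 chromosome 1, 71585520 to 71653200) was at 12.3, 11.6 and 14.3 FPKM in the WT libraries and at 57.0, 67.9 and 69.1 FPKM in the HSA-NRTN libraries. Every HSA-NRTN library lay far above every WT library, and the libraries within a group were close together. The mean went from 12.7 ± 1.38 to 64.6 ± 6.64 FPKM (SD, n = 3), a ratio of 5.08 as deposited and 4.13 with the size factors. On the log2 scale Fn1 rose by 2.26 ± 0.10 (SE; limma, adjusted p = 2.77e-06) as deposited, and after scaling by the size factors by 1.97 ± 0.09 (adjusted p = 3.85e-06). From 3943 to 5875 reads in WT and 19041 to 39876 in HSA-NRTN stood behind these values.

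Postn (ENSMUSG00000027750; chromosome 3, 54361109 to 54391037), whose upstream bases are shown above, was at 1.58, 1.48 and 2.14 FPKM in WT and at 14.4, 11.2 and 11.2 FPKM in HSA-NRTN. It had the lowest WT mean of the 10 genes and was low in all 3 WT libraries. The means were 1.73 ± 0.358 and 12.3 ± 1.84 FPKM (SD, n = 3), a ratio of 7.08 as deposited and 5.80 with the size factors. The log2 change was 2.28 ± 0.12 as deposited (SE; limma, adjusted p = 6.14e-06) and 2.05 ± 0.14 with the size factors (adjusted p = 1.95e-05). In the authors' deposited table the log2 change of Postn was 2.53 and that of Fn1 2.04. Among all tested genes the log2 changes of Fn1 and Postn were both at percentile 99.6 under either scaling.

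Lum and Bgn, 2 of the 3 small leucine-rich proteoglycan genes, rose 2.13-fold and 2.04-fold in mean FPKM (1.73 and 1.66 with the size factors), while Dcn moved least of the 3 (1.34 and 1.09). Lum, encoding lumican (ENSMUSG00000036446; chromosome 10, 97565128 to 97572703), was at 21.3, 15.9 and 16.7 FPKM in WT and at 37.5, 36.9 and 40.4 FPKM in HSA-NRTN. WT 1 was the highest of its group and still well below the other group. As deposited, Lum rose by 1.06 ± 0.11 on the log2 scale (SE; limma, adjusted p = 0.000137), and the size factors gave 0.77 ± 0.11 (adjusted p = 0.000818). Bgn, encoding biglycan (ENSMUSG00000031375; chromosome X, 73483602 to 73495933), was at 13.9, 12.2 and 14.6 FPKM in WT and at 25.7, 30.3 and 27.0 FPKM in HSA-NRTN. Its libraries did not overlap either. The log2 change of Bgn was 0.98 ± 0.09 (SE; limma, adjusted p = 8.33e-05), and 0.69 ± 0.08 with the size factors (adjusted p = 0.000271).

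Dcn, encoding decorin, the most abundant of these proteoglycan transcripts (ENSMUSG00000019929; chromosome 10, 97479609 to 97518143), was at 94.1, 98.1 and 109 FPKM in WT and at 130, 134 and 139 FPKM in HSA-NRTN. As deposited the groups were apart and Dcn was called higher, by 0.42 ± 0.08 on the log2 scale (SE; limma, adjusted p = 0.00255). With the size factors the groups overlapped (104 to 119 against 117 to 124 FPKM after scaling). The log2 change was then 0.12, with a 95% interval from -0.06 to 0.31 (limma, adjusted p = 0.238). The change of Dcn was thus called or not depending on the scaling, and the changes of Lum and Bgn with the size factors lay outside its interval.

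Sparc, whose product is a collagen-binding protein that also helps collagen to be processed, had the highest mean of the 10 transcripts in both groups. In WT 3, however, Dcn was above it (109 against 105 FPKM). Sparc was at 116, 99.7 and 105 FPKM in WT and at 154, 202 and 183 FPKM in HSA-NRTN (ENSMUSG00000018593; chromosome 11, 55394500 to 55423183). HSA-NRTN 1 was the lowest of its group but above each WT library. Sparc rose by 0.74 ± 0.11 on the log2 scale (SE; limma, adjusted p = 0.000872), and the size factors gave 0.44 ± 0.10 (adjusted p = 0.00675).

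Tnc, encoding tenascin-C, a protein of tendon and of regenerating matrix, stayed at a low level in both groups. It was at 2.81, 1.66 and 2.02 FPKM in WT and at 3.63, 4.77 and 4.53 FPKM in HSA-NRTN (ENSMUSG00000028364; chromosome 4, 63959785 to 64047015), from 408 to 599 and 806 to 1864 reads. WT 1 came nearest to the HSA-NRTN libraries, without overlap. The log2 change was 0.76 ± 0.14 (SE; limma, adjusted p = 0.00276) and 0.53 ± 0.13 with the size factors (adjusted p = 0.0107).

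Of the 2 thrombospondin genes Thbs1 was called and Thbs4 was not, and the difference between them was not tested. Thbs1 encodes a trimeric matricellular protein that binds CD36 and CD47 and can activate latent TGF-beta (ENSMUSG00000040152; chromosome 2, 118111876 to 118127133). It was at 4.53, 5.68 and 11.2 FPKM in WT and at 11.6, 15.6 and 21.3 FPKM in HSA-NRTN. WT 3 lay just under HSA-NRTN 1, and with the size factors these 2 libraries changed places (12.2 against 10.9 FPKM after scaling), so the groups then overlapped. The log2 change was 1.12 ± 0.30 (SE; limma, adjusted p = 0.0138) and 0.85 ± 0.29 with the size factors (adjusted p = 0.0384). In the authors' deposited table the log2 change of Thbs1 was 0.88 with an adjusted p of 0.135. The call with the size factors was lost without WT 1, WT 2, HSA-NRTN 2 or HSA-NRTN 3, with limma adjusted p from 0.0873 to 0.115, and without any filter on low values as deposited (0.0523). Fitted with the library number as a block, Thbs1 had a smaller limma adjusted p, 0.00122 as deposited and 0.00240 with the size factors.

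The spread of Thbs1 within groups was the widest of the 10 genes. Its coefficient of variation was 50% in WT and 30.2% in HSA-NRTN, where the median tested gene had 9.01% and 8.07%. Ctgf, another matricellular gene, was also highest in the libraries numbered 3, with 8.10, 12.9 and 17.6 FPKM among WT libraries and 13.0, 21.0 and 30.5 FPKM among HSA-NRTN libraries. Slow-fibre Myh7 was highest in WT 3 as well (13.6, 19.95 and 38.0 FPKM) but lowest in HSA-NRTN 3 (13.7, 11.6 and 4.81 FPKM). The part of these differences between libraries in the result for Thbs1 was not tested.

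Thbs4, encoding the pentameric thrombospondin of tendon and muscle matrix, did not pass the test under either scaling. It was at 58.5, 48.2 and 57.3 FPKM in WT and at 55.1, 74.9 and 67.0 FPKM in HSA-NRTN (ENSMUSG00000021702; chromosome 13, 92751590 to 92794818). HSA-NRTN 1 lay inside the WT range. The log2 change was 0.25, with a 95% interval from -0.03 to 0.54 (limma, adjusted p = 0.112), and -0.039 with the size factors, with an interval from -0.28 to 0.20 (adjusted p = 0.773). Without HSA-NRTN 1 Thbs4 was called higher as deposited (log2 change 0.37; limma, adjusted p = 0.0240). Under each scaling the interval of Thbs4 over all 6 libraries lies below the log2 changes of Lum and Bgn under that scaling. These were 1.06 and 0.98 as deposited, and 0.77 and 0.69 with the size factors.

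Pdgfra, encoding the receptor for platelet-derived growth factors on fibro-adipogenic progenitors (ENSMUSG00000029231; chromosome 5, 75152292 to 75198215), was at 4.16, 4.20 and 4.65 FPKM in WT and at 7.35, 8.77 and 8.28 FPKM in HSA-NRTN. The groups were apart, with a mean of 4.34 ± 0.269 against 8.13 ± 0.722 FPKM (SD, n = 3). The log2 change was 0.77 ± 0.08 (SE; limma, adjusted p = 0.000173) and 0.52 ± 0.07 with the size factors (adjusted p = 0.00054). Opposite-strand genes of GENCODE M21 overlap 4.55% (Gm42802) and 1.66% (Gm42803) of the exonic length of Pdgfra, and 2.50% of Fn1, 2.27% of Tnc and 3.42% of Thbs1, and the labels do not say whether strand was kept. In RNA of whole muscle, more fibroblasts and more RNA per fibroblast cannot be told apart.

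**Figure D2:**
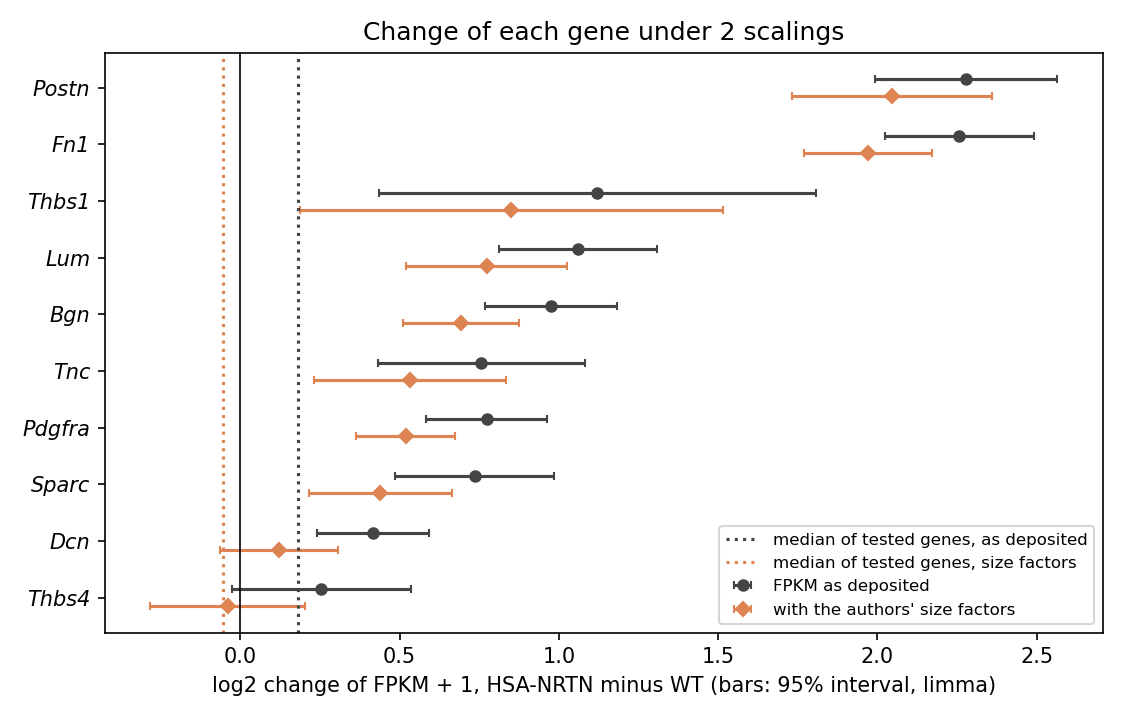
Log2 change of FPKM + 1 with its 95% interval from limma for each of the 10 genes, with FPKM as deposited and with the authors' size factors; dotted lines are the medians of all tested genes (0.18 and -0.05). Postn and Fn1 lie near 2 under both scalings, and the intervals of Dcn and Thbs4 with the size factors include 0.

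A ratio of 2 genes within a library does not depend on how libraries are scaled, so each gene was also set against Dcn. The ratio of Fn1 to Dcn was 0.131, 0.118 and 0.131 in WT and 0.439, 0.508 and 0.495 in HSA-NRTN, 3.79-fold higher. That of Postn to Dcn was 5.32-fold higher, that of Lum 1.60-fold, that of Bgn 1.52-fold and that of Pdgfra 1.40-fold. For these 5 of the 9 ratios the libraries of the groups did not overlap, each with p = 0.10 (exact permutation test, two-sided), the smallest that 3 against 3 libraries can give. The share of all tested genes whose ratio to Dcn did not overlap was not computed, so this count has no background of its own. For levels, 62.1% of tested genes did not overlap as deposited (47.0% with HSA-NRTN higher). With the size factors the shares were 60.0% and 24.6%. Tnc, Sparc and Thbs1 against Dcn were 1.51, 1.25 and 1.77-fold higher with overlap (exact permutation test, p = 0.20 for each), and Thbs4 against Dcn was at 0.893 of its WT level (p = 0.40). No ratio can pass 0.05 in this design.

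The order of the levels, which FPKM allows since it is per length, changed mainly through these genes. In WT it ran Sparc, Dcn, Thbs4, Lum, Bgn, Fn1, Thbs1, Pdgfra, Tnc and Postn. The WT libraries overlapped for the neighbours Sparc and Dcn, Bgn and Fn1, Thbs1 and Pdgfra, and Tnc and Postn. In HSA-NRTN, Fn1 was the fourth, with libraries that overlapped those of Thbs4, and Postn the eighth, overlapping Thbs1, while the other neighbours were apart. As a share of the summed FPKM of the 10 genes, Fn1 went from 3.95% ± 0.25 to 11.7% ± 0.32 and Postn from 0.54% ± 0.09 to 2.26% ± 0.56 (SD, n = 3). Dcn went from 31.3% ± 2.35 to 24.5% ± 1.69 and Thbs4 from 17.0% ± 0.82 to 11.9% ± 0.85, while Sparc was at 33.3% ± 2.03 and 32.5% ± 1.77. The sum itself was 299 to 337 FPKM in WT and 496 to 585 FPKM in HSA-NRTN.

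**Figure D3:**
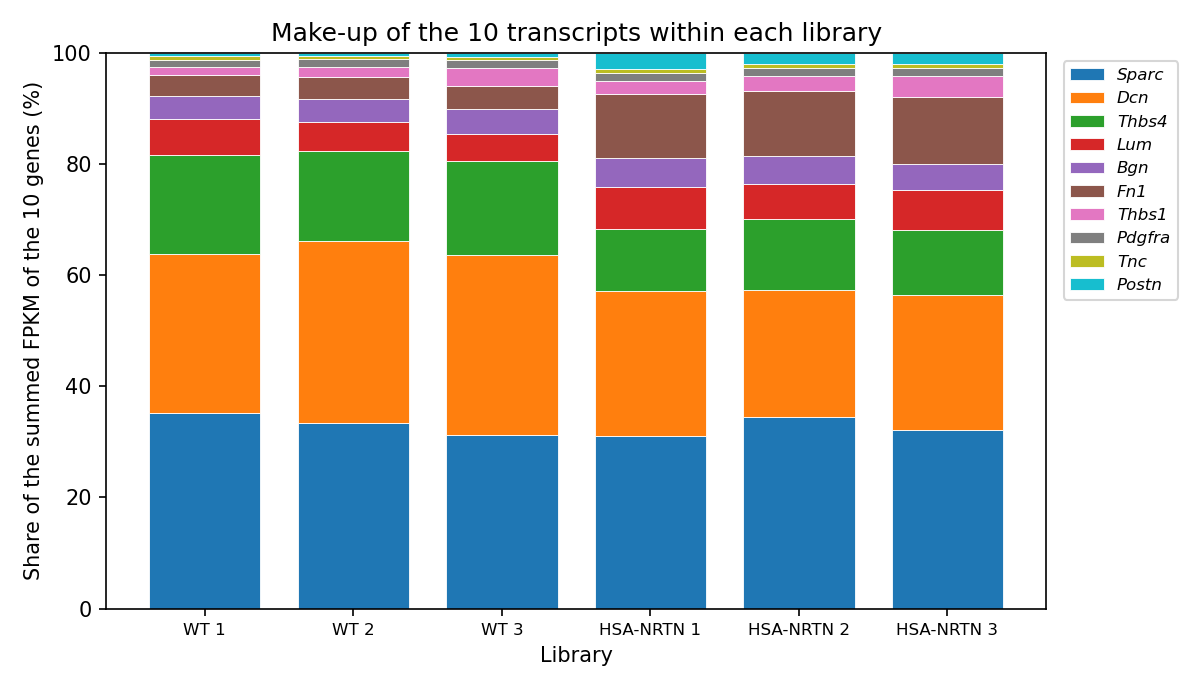
Share of each of the 10 genes in their summed FPKM, 1 bar per library. The band of Fn1 is 3.74% to 4.23% of the bar in WT and 11.5% to 12.1% in HSA-NRTN, and the bands of Dcn and Thbs4 are narrower in HSA-NRTN.

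Relatives of the 10 genes moved unevenly. The counts of all lists are to be read against the shares of all tested genes, 41.6% higher and 11.7% lower as deposited and 21.1% higher and 29.9% lower with the size factors. In the thrombospondin family Thbs3 rose, from 1.69 ± 0.236 to 3.96 ± 0.402 FPKM (SD, n = 3), as did Comp, the cartilage and tendon member, from 9.07 ± 1.54 to 15.7 ± 2.36 FPKM. Thbs2, the closest relative of Thbs1, was at 4.66, 4.22 and 5.66 FPKM in WT and at 4.56, 6.06 and 6.65 FPKM in HSA-NRTN and was not called (limma, adjusted p = 0.237, and 0.751 with the size factors). Thus 3 of 5 thrombospondins rose under both scalings and 0 fell. Of the tenascins Tnxb, the widely expressed member of connective tissue, was called as deposited (8.42 to 10.3 against 10.1 to 15.4 FPKM) but not with the size factors (limma, adjusted p = 0.262).

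The SPARC family went both ways. Fstl1, a secreted glycoprotein with a SPARC-like domain, rose from 19.5 ± 2.56 to 46.9 ± 3.55 FPKM (SD, n = 3), or by 1.23 as deposited and 0.94 with the size factors on the log2 scale. Smoc2, a SPARC-related protein of the matrix made by fibroblasts, fell from 46.9 ± 5.05 to 36.1 ± 3.51 FPKM, by 0.37 and, with the size factors, by 0.66 on the log2 scale (limma, adjusted p = 0.0155 and 0.000752). The WT libraries held 52.7, 43.4 and 44.7 FPKM of Smoc2, all above the 32.1, 38.1 and 38.2 FPKM of the HSA-NRTN libraries. Of the 6 measured genes of the family 2 rose and 1 fell under both scalings. Sparcl1, the closest relative of Sparc, had means of 66.1 and 90.0 FPKM and was called as deposited but not with the size factors (limma, adjusted p of 0.279). Spock2 and Smoc1 were not called under either scaling.

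Among 12 measured small leucine-rich proteoglycan genes, 11 were called higher as deposited and 6 with the size factors, and 0 were lower under either. Besides Lum and Bgn, those that rose under both were Fmod, encoding the tendon proteoglycan fibromodulin, Aspn, Podn and Chad. The call of Fmod with the size factors was at the edge of the threshold (limma, adjusted p = 0.0498), and its groups then overlapped (82.6 to 98.4 against 95.5 to 118 FPKM after scaling). Aspn, encoding asporin, went from 12.6 ± 1.98 to 21.1 ± 1.5 FPKM (SD, n = 3) and Chad, encoding chondroadherin, from 18.2 ± 3.30 to 33.1 ± 6.97. Ogn, Omd, Prelp and Ecm2 lost their calls with the size factors, like Dcn. Kera, encoding keratocan, was not called (4.76 to 8.08 FPKM in WT, 5.79 to 7.52 in HSA-NRTN). The median log2 change of the 12 was 0.55 as deposited and 0.28 with the size factors.

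Of 8 measured CCN and other matricellular genes, only Postn and Tgfbi, a relative of periostin with the same kind of domains, rose under both scalings. Tgfbi was at 9.52, 6.95 and 7.76 FPKM in WT and at 19.3, 20.3 and 20.1 FPKM in HSA-NRTN, a log2 change of 1.21 and, with the size factors, 0.94. Cyr61, Ctgf, Spp1 and Wisp2 were not called under either scaling, and Nov and Fbln5 only as deposited. In the list of elastic fibre and basement membrane genes all 18 measured genes were called higher as deposited and 10 with the size factors, among them the microfibril genes Mfap5 (4.10 ± 0.413 to 9.51 ± 1.29 FPKM) and Mfap4 (4.76 ± 0.461 to 10.3 ± 1.37).

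Receptors that bind the proteins of these genes were tested next. Of 19 measured matrix receptors 13 were called higher and 1 lower as deposited, where 41.6% and 11.7% of all tested genes were, and 9 higher and 1 lower with the size factors, where 21.1% and 29.9% were. Cd44, the hyaluronan receptor of leukocytes and fibroblasts, rose most, from 1.39 ± 0.333 to 9.21 ± 0.919 FPKM (SD, n = 3), followed by the syndecan gene Sdc3 (3.64 ± 0.23 to 10.3 ± 0.55). The thrombospondin receptors Cd36 (110 ± 22.2 to 240 ± 24.8 FPKM) and Cd47 (5.81 ± 0.561 to 11.1 ± 0.915) rose as well. Itga5, the alpha chain of the main fibronectin receptor, rose from 3.20 ± 0.517 to 6.76 ± 1.03 FPKM, while its partner Itgb1 was called as deposited only (limma, adjusted p = 0.0256, and 0.986 with the size factors). Itga5, Itgb1 and Cd36 are named here after their values were seen. Itgb5 fell, from 25.8 ± 2.21 to 21.9 ± 1.29 FPKM.

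Ligands of the PDGF receptors did not all follow Pdgfra. Pdgfa, the ligand that acts only on PDGF receptor alpha, fell, at 10.7, 10.6 and 9.55 FPKM in WT and 6.85, 6.33 and 4.96 FPKM in HSA-NRTN. Its log2 change was -0.69 as deposited (limma, adjusted p = 0.00121) and -0.95 with the size factors (adjusted p = 0.000461). Pdgfd and Pdgfrb, encoding a ligand of the beta receptor and that receptor, rose from 1.63 ± 0.204 to 2.59 ± 0.353 and from 7.74 ± 0.536 to 11.0 ± 0.785 FPKM (SD, n = 3). With the size factors the limma adjusted p of Pdgfd was at the edge of the threshold and that of Pdgfrb was 0.0452. Pdgfd was not called by limma-voom (adjusted p = 0.0834), and neither gene passed in the authors' deposited table (adjusted p of 0.108 for Pdgfd and 0.0825 for Pdgfrb). Pdgfb was not called, and Pdgfc was below the level set for testing, with 0.509 to 0.617 FPKM in WT and 0.945 to 1.18 in HSA-NRTN.

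The TGF-beta pathway, a main inducer of matrix genes in fibroblasts, had called genes in both directions. Of 20 measured genes 9 were called higher and 4 lower as deposited, and 5 higher and 6 lower with the size factors, near the shares of all tested genes (41.6% and 11.7%, then 21.1% and 29.9%). Tgfb1, named after its values were seen, rose from 1.49 ± 0.401 to 4.31 ± 0.875 FPKM (SD, n = 3), the receptor gene Tgfbr2 from 6.51 ± 0.288 to 13.4 ± 0.495 and Nrros, which anchors latent TGF-beta on macrophages and microglia, from 1.08 ± 0.206 to 5.67 ± 0.583. Tgfb2 fell from 5.03 ± 0.0753 to 3.19 ± 0.259 FPKM, and Tgfbr1 and the inhibitory Smad6 fell as well. The median log2 change of the list was 0.17, and -0.07 with the size factors, close to that of all tested genes.

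Markers of fibroblasts and their progenitors were called higher more often than all tested genes, though not uniformly. Of 18 measured markers, which include Pdgfra and Smoc2, 14 were called higher and 1 lower as deposited, where 41.6% and 11.7% of all tested genes were. With the size factors 9 were higher, 1 lower and 8 not called, where 21.1% and 29.9% of all tested genes were higher and lower. The 1 lower was Smoc2. Col14a1 (2.86 ± 0.308 to 7.70 ± 0.880 FPKM), Cd34 (10.9 ± 0.773 to 21.2 ± 1.63) and Gsn (381 ± 16.1 to 678 ± 41.6; SD, n = 3) had the smallest p. Pi16 and Thy1, also found on fibroblasts, were not called under either scaling (limma, adjusted p = 0.154 and 0.207 as deposited). The summed level of the 22 markers, most of it from Gsn in both groups, was 563 to 636 FPKM in WT and 949 to 1084 FPKM in HSA-NRTN. Tcf21 was at 0 in 5 of the 6 libraries. All 7 measured fibrillar collagen genes were called higher as deposited and 6 with the size factors, with Col3a1 from 51.1 ± 14.3 to 129 ± 11.6 FPKM. Of 11 measured genes of activated fibroblasts 10 were called higher and 7 with the size factors; Timp1, an inhibitor of matrix proteases, went from 0.687 ± 0.192 to 5.02 ± 0.905 FPKM.

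Tendon markers were counted because Thbs4, Tnc and Comp are also expressed in tendon. Of 17 measured markers 9 were called higher and 1 lower as deposited, where 41.6% and 11.7% of all tested genes were. With the size factors 7 were higher and 2 lower, where 21.1% and 29.9% of all tested genes were. The median log2 change of the list was 0.59 as deposited and 0.30 with the size factors, beside 0.18 and -0.05 over all tested genes. Tnmd, the defining tenomodulin gene, was at 8.19 to 9.79 FPKM in WT and 10.2 to 12.8 FPKM in HSA-NRTN and lost its call with the size factors (limma, adjusted p = 0.386). Scx, encoding the tendon transcription factor scleraxis, was called lower with the size factors only (limma, adjusted p = 0.0238; 2.58 ± 0.37 and 2.15 ± 0.455 FPKM). Col22a1, a collagen of the junction between muscle and tendon, fell from 3.30 ± 0.144 to 2.25 ± 0.382 FPKM. The summed level of the list was 238 to 284 FPKM in WT and 333 to 426 FPKM in HSA-NRTN, and its part in the results for these genes was not tested.

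Cells other than fibroblasts, among them macrophages, can also hold these transcripts, and RNA of whole muscle does not show which cells held them. All 10 measured macrophage markers were called higher under both scalings, with a median log2 change of 1.69 as deposited and 1.41 with the size factors. Lyz2 went from 27.9 ± 4.62 to 198 ± 9.94 FPKM, Adgre1 from 2.09 ± 0.339 to 12.6 ± 0.80 and Cd68 from 2.42 ± 0.211 to 11.5 ± 1.13 (SD, n = 3). The summed level of the 11 markers was 61.3 to 83.6 FPKM in WT and 365 to 391 FPKM in HSA-NRTN, with no marker at 0 in every library. Their part in the rise of Fn1 and of the other genes was not tested.

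Markers of 5 further cell types of muscle were counted in the same way, without a test between lists. With the size factors 5 of 10 endothelial markers, 2 of 10 markers of smooth muscle and pericytes, 3 of 5 of Schwann cells, 1 of 4 of satellite cells and 4 of 8 of adipocytes were called higher, and 0, 2, 0, 1 and 1 lower, where 21.1% and 29.9% of all tested genes were. As deposited the counts were 9, 7, 5, 2 and 7 higher and 0, 1, 0, 1 and 0 lower, against 41.6% and 11.7%. The counts of smooth muscle and satellite cell markers with the size factors were near the shares of all tested genes. The median log2 change of the adipocyte markers was 0.77 as deposited and 0.51 with the size factors, beside 0.69 and 0.40 for the fibroblast markers. The summed levels, WT against HSA-NRTN, were 95.9 to 105 against 132 to 158 FPKM for endothelium, 1073 to 1104 against 985 to 1100 for smooth muscle and pericytes, 39.6 to 40.3 against 54.2 to 70.9 for Schwann cells, 10.2 to 13.4 against 10.4 to 12.0 for satellite cells and 94.9 to 118 against 210 to 392 for adipocytes. Des held most of the reads of the smooth muscle and pericyte list. Its mean normalized count in the authors' deposited table was 1.07e+05, beside 1.34e+04 for Rgs5, the next. The log2 changes of Des and Abcc9 there were -0.46 and -0.55, and every other gene of that list was above 0. The part of muscle fibres in the sum and the lower calls of that list was not tested. None of these lists had a marker at 0 in every library.

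**Figure D4:**
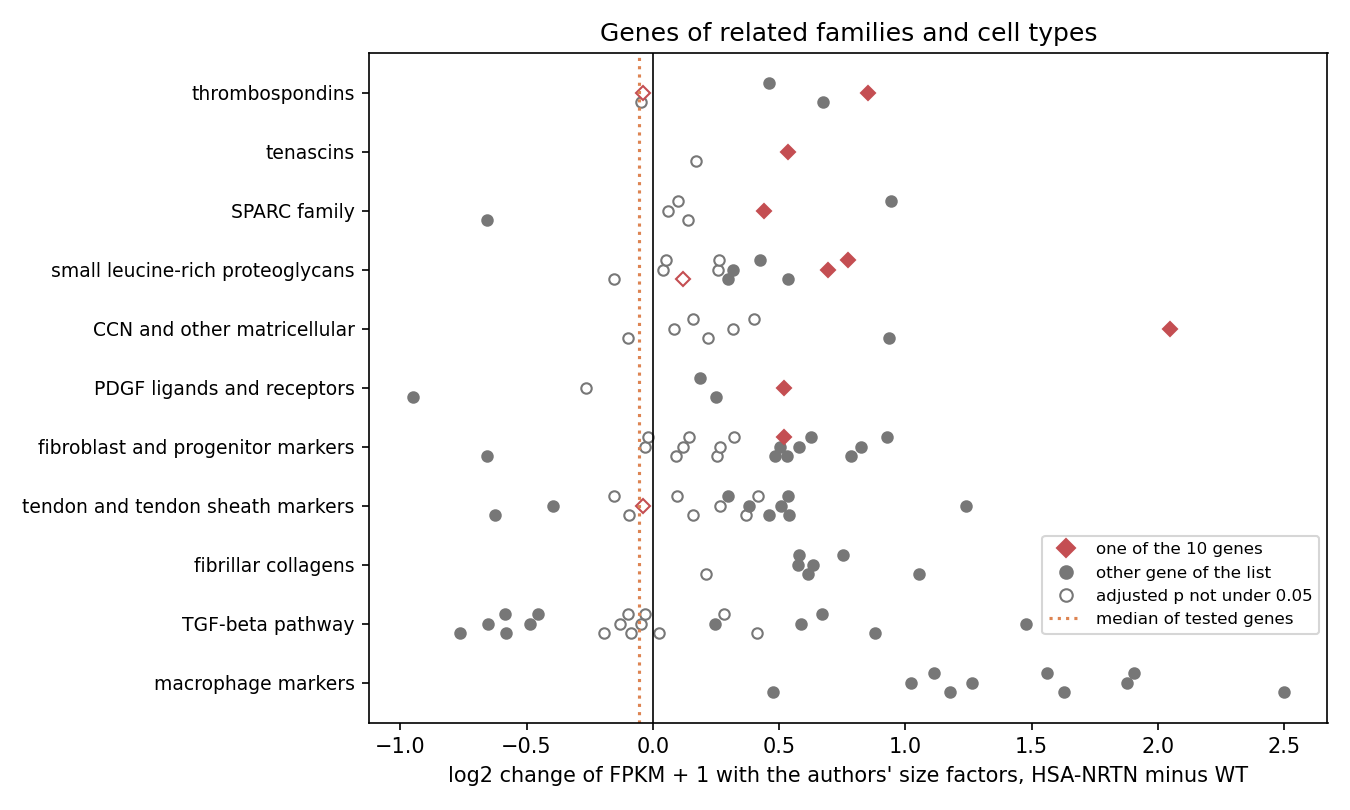
Log2 change of FPKM + 1 with the authors' size factors for the measured genes of 11 lists. Diamonds are those of the 10 genes that belong to a list shown, so Fn1, which is in none of them, is absent. Filled symbols passed the adjusted p of 0.05, and the dotted line is the median of all tested genes (-0.05). The 10 macrophage markers all lie to the right of 0, and the TGF-beta and PDGF lists have called genes on both sides.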

How the data were processed

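RNA-seq of gastrocnemius, with 3 WT and 3 HSA-NRTN libraries, was compared in 1 table of 25344 genes. The authors deposited FPKM per library, with GRCm38 gene positions per the file headers. HISAT2, HTSeq, Cufflinks, Cuffdiff and DESeq2 are named in the submitters' processing notes, with no settings. The deposited table also holds the authors' mean normalized count per gene over all libraries (a signal), log2 fold changes, a test score and p-values with adjusted p-values. The members and gene lists were chosen with earlier results of these data known.

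FPKM were tested as log2(FPKM + 1) with limma 3.58.1 (R 4.3.3, mean-variance trend, Benjamini-Hochberg adjustment, no block) over the 10755 genes whose mean reached 1 FPKM. Reads, gene lengths, totals and size factors were recovered from FPKM and the mean normalized counts: 100% of 127467 values above 0 were whole reads within 0.01 read. Recovered totals were 27418154 to 50291845 reads, so 1 read per kilobase is 0.0199 to 0.0365 FPKM. The fit was tested on simulated data. Named genes were all 10 members, the measured members of their families and up to 3 called genes per direction with the smallest p in each other list. Some genes outside this rule, among them Pi16, Thy1, Tcf21, Myh7, Rgs5 and Angptl7, were named as well. Alternatives were the authors' size factors, median-of-ratios and quantile scaling, a pseudocount of 0.1, no filter, a mean of at least 5 FPKM, limma-voom on recovered reads, a replicate block and each library left out. The size factors combined with the block or with a library left out were added after seeing the data. Promoter sequences are from RefSeq (GRCm38.p6).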

Additional observations from a re-analysis of the deposited data

How the results depend on the processing

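Fn1, Postn, Lum, Bgn, Sparc and Pdgfra kept their direction and their call under every alternative run, and Tnc did wherever it was tested (its mean is below 5 FPKM). The call of Dcn ended with the authors' size factors (log2 change 0.12), median-of-ratios scaling (0.19), quantile normalization (0.20) and limma-voom (0.12), and with size factors plus the replicate block (0.12); leaving out single libraries with the size factors gave 0.073, 0.12 and 0.17 (WT 1, 2 and 3) and 0.11, 0.15 and 0.11 (HSA-NRTN 1, 2 and 3). Thbs4 turned to -0.039 with the size factors, alone or plus the block, and to -0.043 with limma-voom. With size factors it was -0.11 without WT 2, -0.016 without WT 3, -0.12 without HSA-NRTN 2 and -0.047 without HSA-NRTN 3, and above 0 without WT 1 or HSA-NRTN 1; as deposited it ranged from 0.16 to 0.37. Thbs1 had a log2 change of 1.12 without a filter (limma, adjusted p = 0.0523) and, with size factors, lost its call without WT 1 (0.61), WT 2 (0.76), HSA-NRTN 2 (0.88) or HSA-NRTN 3 (0.65). The cause of these changes was not tested. Members called higher numbered 7 to 10. Over all tested genes, 5731 were called (4476 higher, 1255 lower). A mean of at least 5 FPKM, which tests fewer genes, left 2960 (2023 higher). Higher and lower calls were 2264 and 3218 with the size factors, 2692 and 2604 with median-of-ratios, 2377 and 2889 with quantile normalization, and 2351 and 3303 with limma-voom. The replicate block gave 5521 called genes and 9 members higher and changed no member's call. With the block the limma adjusted p of Thbs1 was smaller, at 0.00122 as deposited and 0.00240 with the size factors. For every other member it was larger as deposited. Deviations from the group means correlated at 0.083, -0.17 and 0.19 between same-numbered libraries, and at -0.19 to 0.10 between differently numbered ones. With 3 libraries a group, whose deviations sum to 0, this cannot decide whether the numbers pair the libraries. With 3 libraries a group, changes of low genes such as Tnc and Postn rest on 376 to 657 reads per WT library.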

Other observations

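Some matrix genes were below the level set for testing and were named after their values were seen. Itgb3, encoding the beta chain of an integrin that binds fibronectin and thrombospondin, was at 0.247, 0.430 and 0.428 FPKM in WT and at 1.03, 1.42 and 1.92 FPKM in HSA-NRTN, without overlap. In the authors' deposited table its log2 change was 1.67 (adjusted p = 1.29e-09). Lamc3, a laminin chain found in fibroblasts, was lower, at 0.407, 0.344 and 0.363 FPKM in WT and 0.086, 0.166 and 0.204 FPKM in HSA-NRTN, with a log2 change of -1.58 in the authors' deposited table (adjusted p = 2.38e-05).

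Angptl7, a secreted protein gene on the tendon list, had the same order of libraries as Thbs1 within each group, at 7.93, 14.6 and 19.7 FPKM in WT and 15.8, 24.3 and 27.9 FPKM in HSA-NRTN. It was not called under either scaling (limma, adjusted p = 0.0855, and 0.271 with the size factors). Dcn, Ctgf and other genes had this order of libraries too, and how common it is over all genes was not counted.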
